A study of Saccharomyces cerevisiae with 14 samples.

Results

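The study describes strain NFRI 3236 of the budding yeast *Saccharomyces cerevisiae* as thermotolerant and strain NFRI 3155 as thermosensitive. The comparison described here was between these 2 strains at 39°C. It rests on 4 of the 14 arrays of the study, 2 of each strain, and on every *S. cerevisiae* gene that an Affymetrix yeast array measured (5443 of 5449 genes after a filter on dim probe sets). The cells had been held in a 39°C water bath for 30 min during exponential growth in rich medium. The other arrays held both strains without heat, at 30°C (2 arrays each), and the control strain S288C at both temperatures (3 arrays each). The replicates came from separate experiments, according to the study's methods. Neither the labels nor the study give a genotype for these 2 strains, which came from a collection at the authors' institute. The study describes its strains as having different genetic backgrounds. The probes were designed on a reference sequence, so a missing gene or a sequence difference under a probe cannot be told apart from less RNA.

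In budding yeast, heat switches on genes through Hsf1, which drives chaperones that refold proteins, and through Msn2 and Msn4, which drive a broad set of stress genes through a shared promoter element. At the same time the cell turns down genes that build ribosomes, which otherwise take up much of its transcription. A strain can differ from another in either of these programs, in nutrient genes, or in the gene families near chromosome ends that vary among yeast strains.

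Signal is given below as relative signal, a probe set's signal divided by the 75th percentile of its array, with replicate 1 named before replicate 2. That percentile was 309 and 438 in NFRI 3236 and 282 and 270 in NFRI 3155. Between 5266 and 5285 genes exceeded background on each array, background being the signal that 95% of the fission yeast probe sets on the same array stayed under. Across 4946 genes, which are not independent replicates, log2 signal correlated at r = 0.97 between the NFRI 3236 replicates, 0.95 between the NFRI 3155 replicates and 0.93 between the strain means. NFRI 3236 replicate 2 stood apart in the control probes that compare the 3' end of a transcript with its 5' end. That ratio was 10.9 for *WBP1* against 3.42 to 3.83 on the other 3 arrays, and 98.2 for *SRB4* against 15.4 to 22.5. For *ACT1* its ratio was 1.27, within the range of the other 3 arrays. Calls are therefore also given without that array, or as the range without any 1 of the 4 heated arrays.

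At 39°C, 525 genes (9.65% of 5443) were higher in NFRI 3236 and 585 (10.7%) were lower at an adjusted p under 0.05 in limma. For 55 of them neither array of the lower strain was above background, so only a lower bound of the difference can be given. Counting those genes by their bound, 340 higher and 349 lower genes differed more than 2-fold, and 23 and 26 more than 8-fold. The median size of a called difference was 1.13 on the log2 scale, and the median over all genes was -0.01. Counts in the gene lists below are to be read against the 9.65% and 10.7% of all genes. The lists were chosen with earlier results of these data known, so their shares are a description. The arrays of the strains did not overlap for any of the 1110 called genes, nor for 54.1% of all genes tested. The number of calls depended on single arrays. Without NFRI 3236 replicate 2 there were 187 higher and 242 lower genes, and without NFRI 3155 replicate 2 there were 327 and 315. With no scaling between arrays, the median of all genes moved to 0.40 and the split became 332 higher and 88 lower.

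Without heat, 242 genes (4.45%) were higher in NFRI 3236 and 243 (4.46%) were lower. The strains differed in the same direction at both temperatures for 260 genes, 116 higher and 144 lower, which is 23.4% of the calls at 39°C and 53.6% of those at 30°C. A further 12 genes were called in opposite directions, among them *CIT2*, a citrate synthase, and *HXT5*, a hexose transporter. Across 4946 genes the strain differences at the 2 temperatures correlated at r = 0.53. The change of the strain difference between temperatures passed its own test for 40 genes towards NFRI 3236 (0.735%) and 96 towards NFRI 3155 (1.76%). Of the 838 genes called at 39°C and not at 30°C, 63 passed that test, and for the other 775 a difference between the temperatures was not shown. S288C at 39°C lay between the strains for 486 of the 1110 called genes, and its mean was nearer to NFRI 3236 for 767.

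**Figure D1:**
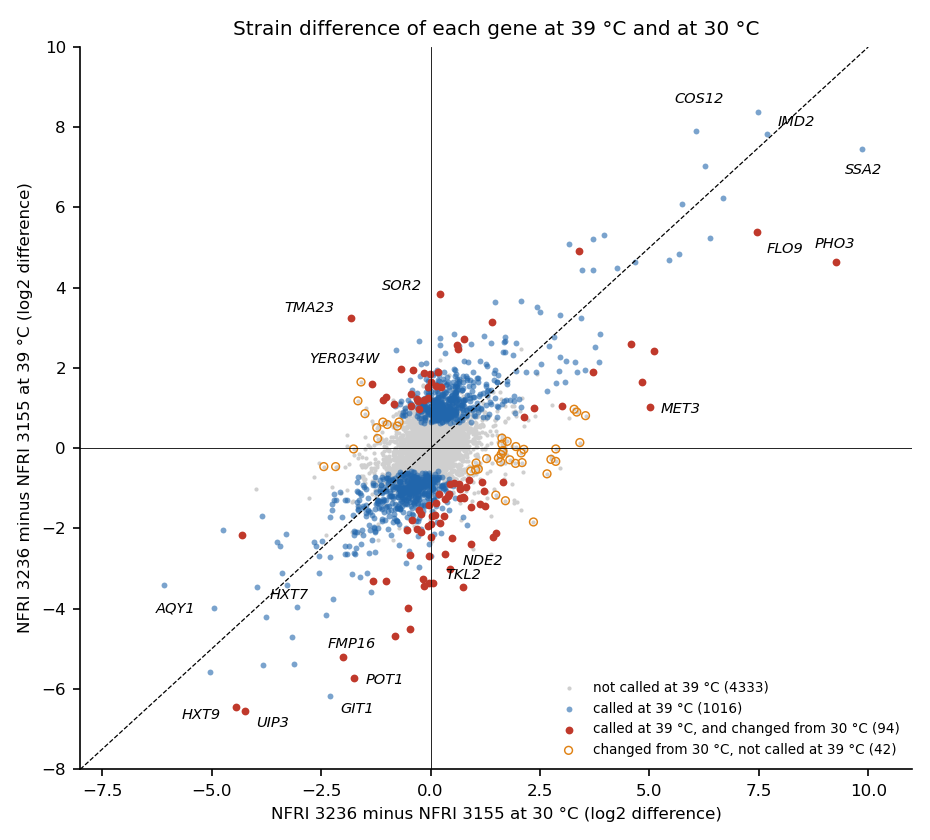
Strain difference (NFRI 3236 minus NFRI 3155, log2 of relative signal) at 30°C on the horizontal axis and at 39°C on the vertical axis, each point 1 gene, with the 94 genes called at 39°C whose difference also changed between temperatures in red and the diagonal dashed. *HXT7* (-3.97 at 30°C and -3.46 at 39°C) lies near the diagonal and *FMP16* (-0.82 and -4.68) off it. Points of genes at background in 1 strain, *COS12* among them, are drawn at fitted values that are not measured sizes.

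Some genes had a signal in 1 strain alone. Across all 8 arrays of these strains, 13 genes were above background on every NFRI 3236 array and on no NFRI 3155 array, and 10 the other way round. They were chosen by these same arrays, so their strain differences are a description. In S288C, 10 of the 13 and 4 of the 10 were above background on every array of both temperatures.

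*COS12*, a member of a subtelomeric family of membrane proteins that sort other proteins to the vacuole, had a relative signal of 1.17 and 1.27 in NFRI 3236 and 0.00354 and 0.00370 in NFRI 3155. Both NFRI 3155 values stand for the lowest signal the scale allows, so the difference is a bound, at least 41.1-fold (adjusted p 1.19e-08). *IMD2*, which encodes the enzyme that commits purines to GTP synthesis, read 1.30 and 1.57 against 0.00748 and 0.00531, at least 48.3-fold higher in NFRI 3236 (adjusted p 1.16e-09). Its probe set is one that the maker marks as able to bind related genes, and *IMD2* has close paralogs. *YAR010C*, a Ty1 retrotransposon Gag gene with many copies, read 2.08 and 1.23 against 0.0121 and 0.00370, at least 54.2-fold higher. *MAL13*, an activator of maltose genes, read 0.155 and 0.136 against 0.00354 and 0.00370, and *ENB1*, an enterobactin-iron transporter, 0.482 and 0.493 against 0.0143 and 0.0117. Both were called (adjusted p 2.42e-05 and 3.06e-06), at least 4.91-fold and at least 16.5-fold higher. The uncharacterised gene beside *ENB1*, *YOL159C-A*, read 0.351 and 0.642 against 0.00354 and 0.00370, at least 16.1-fold higher. Every NFRI 3155 array was at background for these 6 genes.

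In the other direction, *UIP3*, a membrane protein gene of the DUP family, read 0.00933 and 0.00973 in NFRI 3236 and 0.972 and 0.804 in NFRI 3155, at least 29.7-fold lower (adjusted p 1.57e-09). *AAD6*, a putative aryl-alcohol dehydrogenase gene, read 0.00603 and 0.00230 against 0.157 and 0.198, at least 5.93-fold lower. Its chromosomal neighbour *AGP3*, an amino acid permease gene, read 0.0149 and 0.00901 against 0.198 and 0.216, at least 6.95-fold lower. *YHR213W*, a gene similar to flocculins, read 0.00648 and 0.00669 against 0.222 and 0.352, at least 9.40-fold lower, and *YCR099C*, of unknown function, was at least 3.84-fold lower. *YLR460C* and *YIL060W*, both of unknown function, were at background on both heated NFRI 3236 arrays, and were at least 5.90-fold and at least 2.07-fold lower there than in NFRI 3155. *YIL082W-A*, a Ty3 retrotransposon gene with more than 1 copy, had a log2 difference of -4.71 ± 0.83, with 1 of the 2 NFRI 3236 arrays above background. An aryl-alcohol dehydrogenase gene of the same family, *AAD14*, went the opposite way, 0.376 and 0.339 in NFRI 3236 against 0.00645 and 0.0141 in NFRI 3155, at least 12.1-fold higher.

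**Figure D2:**
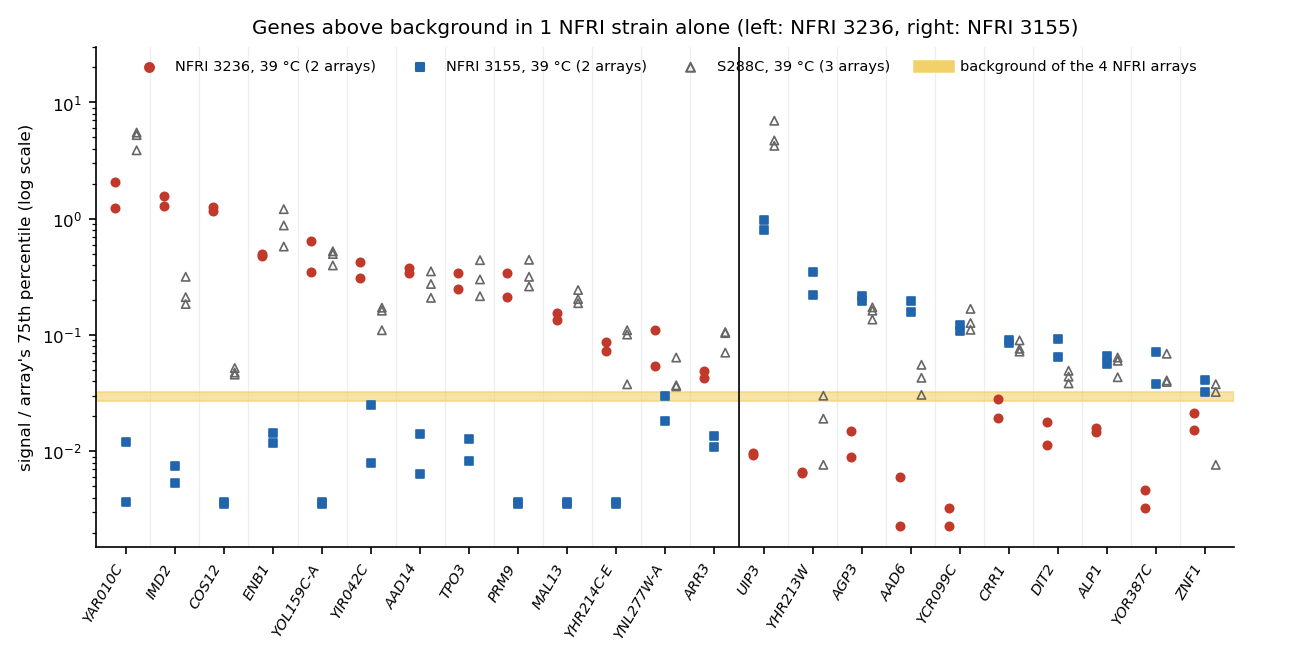
Relative signal at 39°C, on a log axis, of the 23 genes above background on all 4 arrays of 1 strain and on no array of the other, 1 point an array, for NFRI 3236, NFRI 3155 and S288C, with the background of the arrays as a band. *COS12* and *IMD2* sit above 1 in NFRI 3236 and below 0.01 in NFRI 3155, and *UIP3* shows the reverse with S288C above both strains.

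Many of these genes lay near chromosome ends. Of the 49 genes called with more than an 8-fold difference, bounds included, 23 (46.9%) were among the 15 genes nearest an end in the reference annotation, as were 16 of the 23 genes at background in 1 strain (69.6%). The same held for 129 of all 1110 called genes (11.6%) and for 377 of the 5443 tested (6.93%). Some called genes were neighbours: 24 runs of 3 or more adjacent genes were called in the same direction, and held 79 of the 1110 called genes (7.12%). How many such runs would arise without any tie between neighbours was not tested. One held *IMA1*, *MAL13* and *MAL11*, an isomaltase, the activator and the permease of a maltose cluster, all higher in NFRI 3236. *MAL13* and *MAL11* were at least 4.91-fold and at least 3.68-fold higher, and *IMA1* was above background on 1 of the 2 NFRI 3155 arrays. Another held *AQY1*, a spore water channel gene, with *HPA2*, *OPT2*, *YPR196W* and *SGE1*, all lower in NFRI 3236.

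*SSA2*, a constitutive cytosolic Hsp70 chaperone, had a relative signal of 20.4 and 24.0 in NFRI 3236 and 0.201 and 0.0786 in NFRI 3155, and 37.7, 46.6 and 23.7 in S288C. The difference was 7.46 ± 1.13 (SE) on the log2 scale (adjusted p 6.34e-04), and 9.85 at 30°C. Its signal in NFRI 3155 was above background on both heated arrays and on 1 of the 2 arrays at 30°C. *EHD3*, a mitochondrial hydrolase of valine breakdown that the reference strain also expresses, read 2.01 and 1.26 against 0.0144 and 0.0386 (6.08 ± 0.36, adjusted p 1.64e-07), with 1 of the 2 NFRI 3155 arrays above background. The same held for 1 of the 2 arrays of the lower strain in *GIT1*, *PHO3*, *FIT1*, *STE3* and *PRM8*, described further on, whose fitted differences therefore rest partly on a signal at background. *FLO9*, an adhesin gene that shares sequence with other flocculins, read 6.74 and 7.82 against 0.139 and 0.216 (5.39 ± 0.30, adjusted p 7.36e-08).

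The genes taken as markers of heat, *HSP26*, *HSP104*, *SSA4* and *HSP12*, did not pass the test. *HSP26*, a small heat shock protein gene, read 30.3 and 26.2 in NFRI 3236 and 31.7 and 35.5 in NFRI 3155 (-0.25 ± 0.30, adjusted p 0.604). *HSP104*, the disaggregase, read 14.3 and 14.1 against 16.2 and 19.8 (-0.34 ± 0.29, adjusted p 0.444), and the log2 differences of *SSA4* and *HSP12* were -0.27 and -0.29. On the same scale *HSP26* changed by 7.29 with heat in NFRI 3236 and by 9.10 in NFRI 3155, so both strains carried the marker of a heat shock. By its own test with all arrays, the strain difference of *HSP26* and of *HSP12* changed between temperatures in the negative direction. Without NFRI 3236 replicate 2 at 39°C these changes were -1.70 and -1.99, and both calls depended on single arrays. The *HSP26* signal was 90.9% to 97.3% of the highest signal on its array and that of *HSP12* 87.8% to 96.0%, where an array may no longer separate levels. Among 33 genes dependent on Hsf1, 2 were higher, 1 was lower and 30 did not pass, with a median of 0.14, and without any 1 heated array 1 to 5 were higher and 0 to 2 lower. The higher genes were *SSA2* and *CUR1*, which sorts misfolded proteins. *CUR1* read 1.52 and 2.27 against 0.846 and 0.420. It was no longer called without NFRI 3236 replicate 2 (adjusted p 0.0507).

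The general stress genes of Msn2 and Msn4 differed much more. None of the 32 measured was higher in NFRI 3236, 17 (53.1%) were lower and 15 did not pass, and 28 of the 32 had a negative value. The median difference was -0.96 against -0.01 over all genes. Leaving out any 1 array gave 12 to 18 lower genes and no higher ones. At 30°C the same list held 4 higher and 3 lower genes with a median of -0.00, and for 12 members the change between temperatures passed its own test in the negative direction. Heat changed the list by a median of 2.37 in NFRI 3236 and 3.87 in NFRI 3155. With no scaling between arrays 10 members were lower, with a median of -0.55 where all genes had 0.40.

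*FMP16*, a mitochondrial protein gene, had a relative signal of at most 0.313 in NFRI 3236, 6.69 and 6.19 in NFRI 3155 and 4.79 to 5.41 in S288C. The log2 difference was -4.68 ± 0.30 (adjusted p 3.82e-07) at 39°C and -0.82 (adjusted p 0.133) at 30°C. *TKL2*, a transketolase of the pentose phosphate pathway, read 0.849 and 1.17 against 8.51 and 12.4, with 0.261 to 0.351 in S288C (-3.37 ± 0.37, adjusted p 4.58e-05). *CTT1*, the cytosolic catalase that breaks down hydrogen peroxide, read 0.953 and 0.537 against 5.77 and 6.62 (-3.11 ± 0.33, adjusted p 3.99e-05). It was also lower at 30°C (-1.45, adjusted p 0.0147). *ALD3*, a stress-induced aldehyde dehydrogenase, read 0.569 and 0.509 against 4.70 and 6.42 (-3.35 ± 0.42). *SIP18*, a desiccation-tolerance gene, read 0.106 and 0.0693 against 0.635 or more (-3.46 ± 0.40), and *NQM1*, a transaldolase, 0.666 and 0.561 against 6.47 and 5.79 (-3.32 ± 0.28). The strains did not overlap in these genes, as in every called gene and in 54.1% of all genes tested. *FMP45*, a membrane protein gene of the cortical eisosome, was not in the list and had a log2 difference of -3.99 ± 0.38 (adjusted p 1.14e-05).

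**Figure D3:**
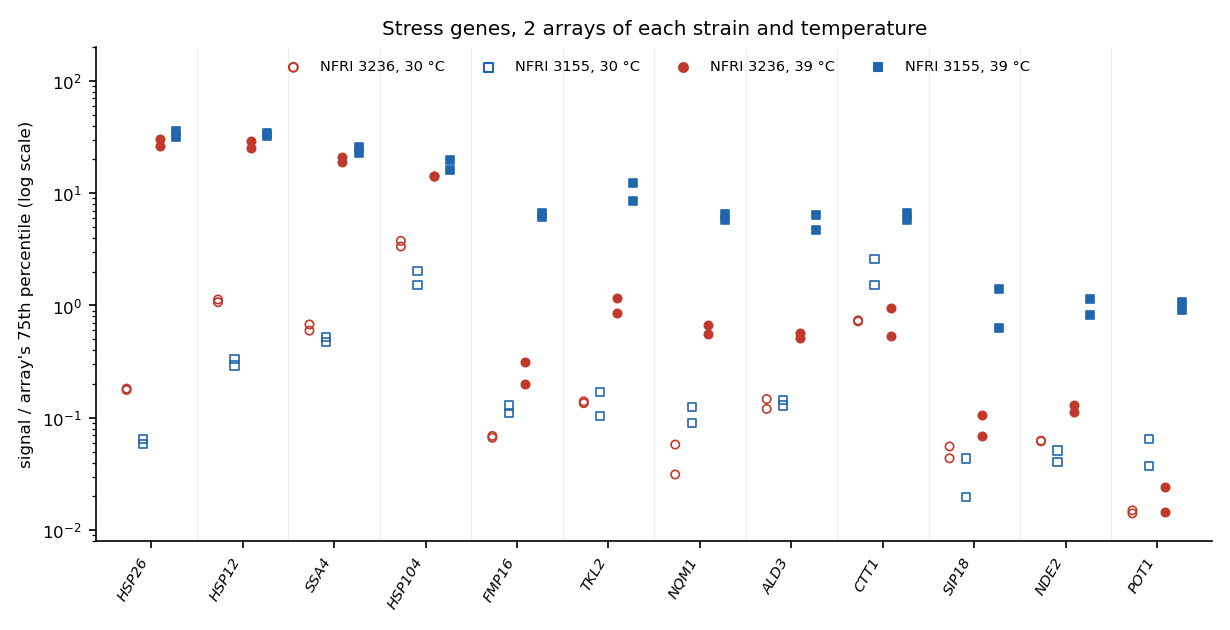
Relative signal on a log axis of heat shock genes, general stress genes, *NDE2* and *POT1* on each array of NFRI 3236 and NFRI 3155 at 30°C and 39°C. At 39°C *FMP16* and *TKL2* sit lower on both NFRI 3236 arrays than on both NFRI 3155 arrays, while the 39°C points of *HSP26* and *HSP104* lie close together.

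*MSN4* itself read 0.286 and 0.317 in NFRI 3236 and 0.523 and 1.43 in NFRI 3155 (-1.52 ± 0.41, adjusted p 0.0201). The call rested on 3 arrays, being lost without NFRI 3236 replicate 1 (adjusted p 0.0679), without NFRI 3236 replicate 2 (0.0849) and without NFRI 3155 replicate 2 (0.180). *MSN2* and *HSF1* did not pass (-0.47, adjusted p 0.280, and 0.45, adjusted p 0.129). The *MSN2* difference also depended on single arrays, being -0.93 without NFRI 3155 replicate 1.

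Genes of trehalose and glycogen metabolism, which make and use reserve carbohydrates, of which trehalose also protects cells in heat, were lower or did not pass. Of 21 measured, 10 were lower in NFRI 3236, with a median of -0.83. *GSY1*, a glycogen synthase, read 0.498 and 0.373 against 1.21 and 1.31 (-1.55 ± 0.29, adjusted p 0.00270), and *PGM2*, a phosphoglucomutase, 9.21 and 7.13 against 14.1 and 16.7 (-0.92 ± 0.28). The *PGM2* difference was -0.80 without NFRI 3155 replicate 2 and -0.74 without NFRI 3236 replicate 2, and its call depended on those arrays. The trehalose synthase gene *TPS1* read 12.3 and 12.4 against 18.2 and 19.7 and did not pass (adjusted p 0.108). The count fell to 3 without NFRI 3236 replicate 2 and to 3 without NFRI 3155 replicate 2, and to 1 with no scaling between arrays. At 30°C, 5 of the 21 were lower, and no member passed the test of a change between temperatures.

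Among 32 genes of the peroxisome and of fatty acid oxidation, 11 (34.4%) were lower in NFRI 3236 and none was higher, with a median of -0.55. With 1 heated array left out the median lay between -0.56 and -0.43. Calls were then mostly lower, and some of these settings also had members called higher. *POT1*, the thiolase of the last step of fatty acid oxidation, read 0.0242 and 0.0145 against 1.08 and 0.914, at least 33.3-fold lower (adjusted p 3.91e-07), and S288C read 0.0632 to 0.114. At 30°C it was at background on both NFRI 3236 arrays and on 1 of the 2 NFRI 3155 arrays. *POX1*, the oxidase of the first step, read 0.0803 and 0.0727 against 0.479 and 0.476 (-2.64 ± 0.41, adjusted p 7.50e-04). *ADR1*, the activator of these genes when glucose is spent, read 0.0844 and 0.0668 against 0.304 and 0.541 (-2.43 ± 0.36, adjusted p 4.66e-04), and the carnitine carrier gene *CRC1* 0.0990 and 0.111 against 0.480 and 0.578 (-2.33 ± 0.38). All 4 genes act in the use of fatty acids or in its control. With no scaling between arrays 5 members were lower and the median was -0.13.

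Of 44 genes of the respiratory chain and ATP synthase, 5 were lower (11.4%, against 10.7% of all genes) and none was higher. The median was -0.07, and without any 1 heated array 0 to 2 were higher and 2 to 5 lower. *NDE2*, a mitochondrial NADH dehydrogenase facing the cytosol, read 0.129 and 0.113 against 0.819 and 1.15 (-3.01 ± 0.22, adjusted p 1.41e-06) and did not pass at 30°C (0.45, adjusted p 0.271). Its change between temperatures was -3.47 ± 0.32 (adjusted p 3.25e-04), with 1 of the 2 NFRI 3155 arrays at 30°C above background. *CYB2*, which feeds electrons from lactate to cytochrome c, read 0.431 and 0.318 against 1.96 and 2.68 (-2.63 ± 0.35). In the tricarboxylic acid cycle, 2 of 24 genes were higher and 6 lower with a median of -0.41, which was 0.01 with no scaling between arrays. Without any 1 heated array 0 to 2 were higher and 1 to 5 lower, the lowest count without NFRI 3236 replicate 2. *CIT2*, the peroxisomal citrate synthase, read 1.04 and 0.890 against 2.18 and 2.36 at 39°C (-1.24 ± 0.20, adjusted p 0.00118) and 4.53 and 4.42 against 2.39 and 2.86 at 30°C (0.77, adjusted p 0.0307).

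Ribosome biogenesis genes, which encode the factors that process and assemble ribosomal RNA, went the other way from the stress genes. Of 106 measured, 33 (31.1%) were higher in NFRI 3236, none was lower and 73 did not pass. The median was 0.58, and 99 of the 106 had a positive value. At 30°C the list held 1 higher and 3 lower genes with a median of -0.00. Heat changed the list by a median of -0.91 in NFRI 3236 and -1.61 in NFRI 3155. The change of the strain difference between temperatures passed its own test for 3 members. The count depended on single arrays. It was 6 without NFRI 3236 replicate 2, 12 without NFRI 3155 replicate 2 and 52 without NFRI 3155 replicate 1, and the median of the list lay between 0.40 and 0.89 in these settings.

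*ESF2*, a factor of early ribosomal RNA processing, read 0.356 and 0.448 in NFRI 3236 and 0.144 and 0.0783 in NFRI 3155 (1.91 ± 0.27, adjusted p 4.22e-04), and 0.16 at 30°C on the log2 scale. *RRP17*, an exonuclease that trims ribosomal RNA, read 0.433 and 0.799 against 0.222 and 0.124 (1.82 ± 0.31, adjusted p 0.00152). *NOP16*, a factor of the large subunit, read 0.692 and 1.32 against 0.389 and 0.0870 (2.38 ± 0.50, adjusted p 0.00607) and was no longer called without NFRI 3236 replicate 2 (adjusted p 0.0763). S288C lay above NFRI 3236 in *ESF2*, at 0.585 to 0.752. Among 35 genes of RNA polymerases I and III, 8 were higher and 4 lower, and without any 1 heated array 2 to 12 and 3 to 6. *RPA14*, a subunit of RNA polymerase I, was higher on both NFRI 3236 arrays, where it reached 7.17, than in NFRI 3155 at 1.87 and 1.96 (1.64 ± 0.23, adjusted p 3.97e-04). Genes of initiation factors were lower in NFRI 3236: *RRN6* (-1.44, adjusted p 0.00627) and *RRN7* (-1.31, adjusted p 0.00686) of polymerase I, and *TFC3* (-1.32, adjusted p 0.00471) of polymerase III. The *RRN7* difference was -1.02 without NFRI 3155 replicate 2, and its call depended on that array. Of 127 cytosolic ribosomal proteins 1 was higher and none was lower. Their median was 0.18, and 101 had a positive value. Without any 1 heated array 0 to 7 were higher. Of 75 mitochondrial ribosomal proteins 5 were lower, but 9 were higher and none lower without NFRI 3155 replicate 1.

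**Figure D4:**
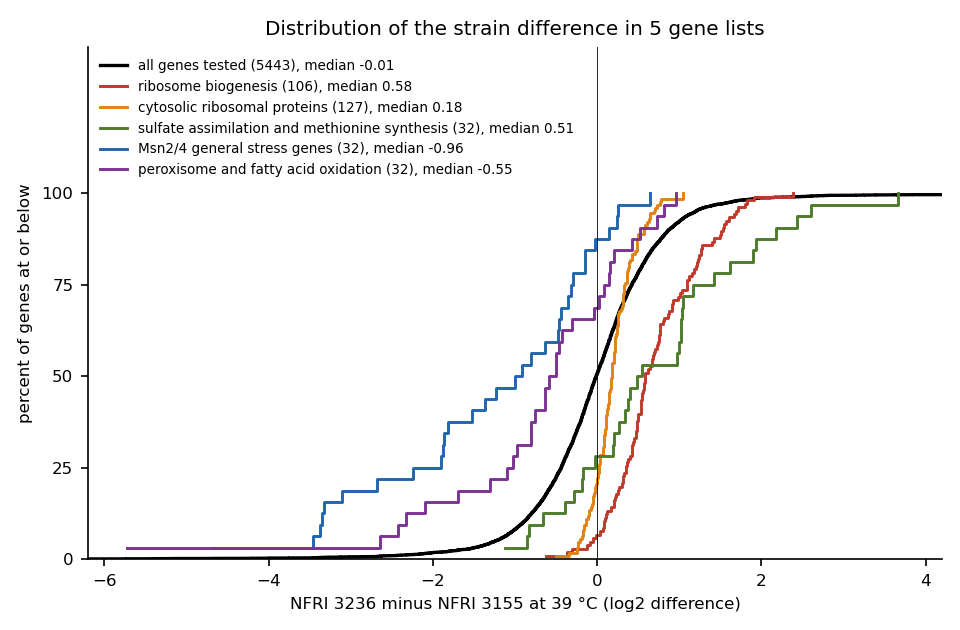
Strain difference at 39°C (NFRI 3236 minus NFRI 3155, log2) on the horizontal axis against the percentage of genes at or below it on the vertical axis, 1 stepped line for each of 5 gene lists and 1 for all genes tested. The line of the Msn2/4 genes (median -0.96) runs left of that of all genes (-0.01), and that of the ribosome biogenesis genes (0.58) runs right of it.

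Genes of sulfate assimilation and methionine synthesis were mostly higher in NFRI 3236 where they were called. Of 32 measured, 15 (46.9%) were higher, 2 were lower and 15 did not pass at 39°C, with a median of 0.51, and 18 were higher and none lower at 30°C, with a median of 0.98. Leaving out 1 array gave 12 higher genes each time. *MET16*, which reduces activated sulfate, read 6.13 and 5.74 against 1.12 and 0.857 (2.60 ± 0.25, adjusted p 1.50e-05). *MET14*, which activates sulfate, read 9.98 and 9.79 against 2.42 and 1.39 (2.43 ± 0.27, adjusted p 5.79e-05). *MET8*, which makes the siroheme cofactor of sulfite reductase, read 2.70 and 3.27 against 0.330 and 0.168 (3.66 ± 0.40). *MET14* and *MET16* act one after the other in this pathway. The strain difference moved towards NFRI 3155 with heat for 6 members by the test of the change, among them *MET14*, from 5.10 at 30°C to 2.43, and *MET3*, the ATP sulfurylase, from 5.01 to 1.02. *MET3* read 8.84 and 5.51 against 3.07 and 3.87 at 39°C (adjusted p 0.0400), a call that was lost without NFRI 3236 replicate 1 (adjusted p 0.216), NFRI 3155 replicate 1 (0.142) or NFRI 3155 replicate 2 (0.0731).

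Among 66 genes of amino acid synthesis 14 were higher and 5 lower, with a median of 0.39, and without any 1 heated array 6 to 14 and 0 to 4. *CAR2*, an enzyme of arginine breakdown, read 8.04 and 11.2 against 1.27 and 0.895 (3.15 ± 0.26, adjusted p 3.58e-06). *TAT1*, a permease for tyrosine and tryptophan, read 0.220 and 0.225 against 1.80 and 2.11 (-3.13 ± 0.24, adjusted p 1.55e-06). Of 26 genes of purine and GTP synthesis, 4 were higher (15.4%, against 9.65% of all genes) and 9 lower (34.6%, against 10.7%). The lower genes were led by *GCV1* and *GCV2*, subunits of the glycine cleavage system that supplies one-carbon units. *GCV1* read 0.908 and 0.650 against 10.8 and 13.5 (-3.97 ± 0.35, adjusted p 5.87e-06) and *GCV2* 2.36 and 1.68 against 8.76 and 13.4 (-2.44 ± 0.35, adjusted p 4.24e-04). Without any 1 heated array the purine list held 1 to 4 higher and 5 to 7 lower genes.

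Of the phosphate regulon 17.4% was higher and 34.8% lower, against 9.65% and 10.7% of all genes. For the iron and copper regulon the shares were 8.33% and 22.2%. In the phosphate regulon 4 of 23 were higher and 8 lower, and without any 1 heated array 2 to 4 and 3 to 8. *GIT1*, a transporter of glycerophosphoinositol, read 0.0275 and 0.0274 against 1.79 and 2.22 (-6.19 ± 0.69, adjusted p 5.03e-05), with 1.52 to 2.45 in S288C. *PHO3*, an acid phosphatase that also serves thiamine uptake, read 0.677 and 0.696 against 0.0217 and 0.0356 (4.63 ± 0.46, adjusted p 1.81e-05). *SPL2*, a regulator of phosphate transport, read 0.0797 and 0.0804 against 0.287 and 0.387 (-2.06 ± 0.24). S288C read 9.27 to 11.8 for *SPL2*, above both strains. In the iron and copper regulon 3 of 36 were higher and 8 lower, with a median of -0.53, and without any 1 heated array 3 were higher and 2 to 12 lower. *FET4*, a low-affinity iron transporter that is also repressed by oxygen, read 3.54 and 3.45 against 0.166 and 0.144 (4.50 ± 0.28, adjusted p 2.91e-07). *FIT1*, a cell wall protein that holds iron siderophores, read 0.0304 and 0.0672 against 0.252 and 0.233 (-2.42 ± 0.32, adjusted p 2.48e-04).

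Among 42 genes of glycolysis and fermentation, 3 were higher (7.14%) and 6 lower (14.3%), near the 9.65% and 10.7% of all genes, with a median of -0.27. Single genes of sugar uptake and fermentation differed more. *HXT1*, the transporter used at high glucose, read 5.61 and 6.57 against 0.449 and 0.615 (3.53 ± 0.28, adjusted p 1.95e-06), and *HXT4* 5.74 and 5.65 against 1.27 and 2.14 (1.79 ± 0.31). *HXT7*, a high-affinity transporter with a close paralog and a probe set marked as shared between genes, read 1.29 and 1.39 against 12.5 and 17.4 (-3.46 ± 0.22, adjusted p 2.91e-07). *HXT9*, a subtelomeric transporter gene, read 0.0439 and 0.0451 against 4.58 and 3.26 (-6.44 ± 0.30, adjusted p 1.38e-08). For *HXT1* and *HXT7* the 30°C differences were 2.43 and -3.97, and the change between temperatures did not pass for either (adjusted p 0.178 and 0.453). Of 23 hexose transporter and sensor genes, 3 were higher and 6 lower, and without any 1 heated array 2 to 4 and 3 to 6. *PDC5*, a pyruvate decarboxylase of fermentation, read 7.58 and 8.45 against 1.31 and 0.947 (2.84 ± 0.23, adjusted p 3.08e-06). In fatty acid synthesis, where 2 of 23 genes were higher and 4 lower, the synthase subunit gene *FAS2* read 7.92 and 7.44 against 1.65 and 3.00 (1.79 ± 0.26, adjusted p 4.72e-04). *ALD6*, which makes acetate, read 5.12 and 5.51 against 2.22 and 1.55 (1.52 ± 0.22).

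**Figure D5:**
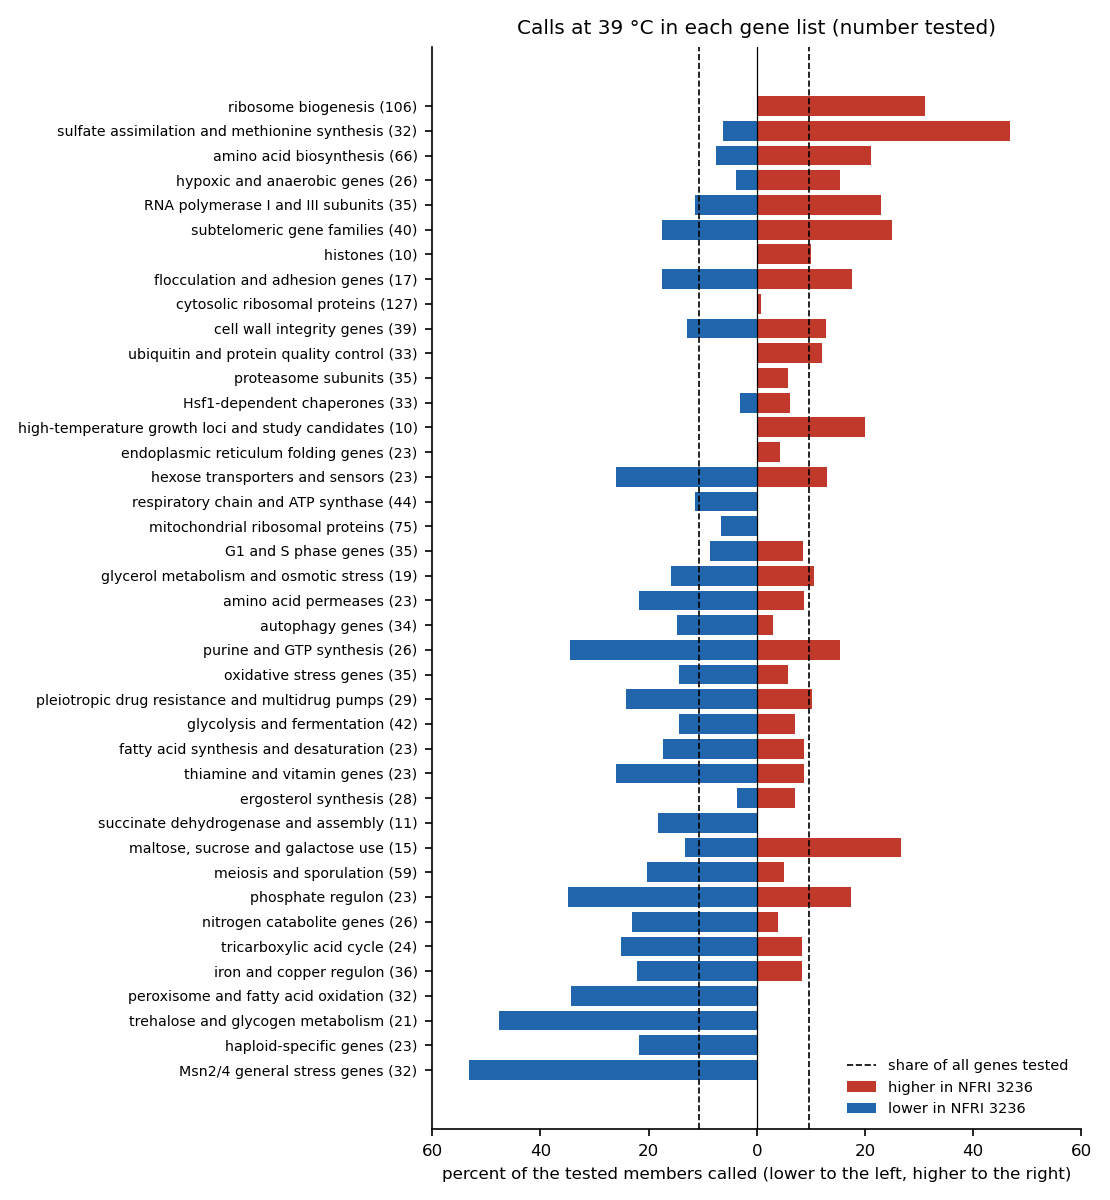
Percentage of the tested members of each gene list of 10 or more genes that was higher (bars to the right) or lower (bars to the left) in NFRI 3236 at 39°C, with the percentages of all genes (9.65% and 10.7%) as dashed lines. The Msn2/4 genes reach 53.1% lower, the sulfate and methionine genes 46.9% higher and the ribosome biogenesis genes 31.1% higher.

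The study chose *PRM5*, *YER034W* and *FMP21* as candidates on these same samples, so their values are not independent evidence. It then measured their heat-induced ratios by real-time RT-PCR. The *FMP21* ratio rose with the thermotolerance of the strains, and those of *YER034W* and *PRM5* were reported as unrelated to it. The study followed up *FMP21* in further strains, by deletion and by overexpression. Those ratios compare heated with unheated cells, unlike the strain difference at 39°C given here. *PRM5*, a membrane protein gene turned on by the cell wall integrity pathway, read 3.33 and 3.26 in NFRI 3236, 0.494 and 0.596 in NFRI 3155 and 6.42 to 11.5 in S288C (2.60 ± 0.38, adjusted p 4.59e-04). Heat changed it by 5.59 in NFRI 3236 and 3.91 in NFRI 3155, and the change of the strain difference did not pass (1.68, adjusted p 0.137). At 30°C *PRM5* was above background on 1 of the 2 arrays of each strain, so these changes rest partly on a signal at background. *YER034W*, of unknown function, read 0.298 and 0.431 against 0.0997 and 0.0835 (1.97 ± 0.22, adjusted p 4.64e-05), and the strain difference changed by 2.66 ± 0.30 between temperatures (adjusted p 5.53e-04). *FMP21*, an assembly factor of succinate dehydrogenase also named *SDH8*, did not differ by the test at 39°C, with 3.07 and 4.41 against 3.26 and 2.99 (0.24 ± 0.22, adjusted p 0.488). At 30°C it was lower in NFRI 3236 (-1.21, adjusted p 0.00326), and its change between temperatures (1.45, adjusted p 0.0282) was lost without each of 5 arrays, with adjusted p from 0.0655 to 0.108. Those arrays were both NFRI 3155 arrays at 30°C, NFRI 3236 replicate 2 at 30°C, and replicate 2 of each strain at 39°C. Of 39 genes of the cell wall integrity response 5 were higher and 5 lower (12.8% each, near the 9.65% and 10.7% of all genes), and without any 1 heated array 2 to 3 and 1 to 5. The high-temperature growth loci *MKT1*, *END3* and *RHO2* did not pass (-0.35, 0.26 and -0.01). Without NFRI 3236 replicate 1 the *MKT1* difference was -0.98. Nor did the study's reference genes *ACT1* and *ALG9* pass (-0.26 and -0.18), or *TDH3*, whose promoter the study used for overexpression (-0.36). The signal of *ACT1* was 80.1% to 95.2% of the highest on its array and that of *TDH3* 75.4% to 88.9%, where an array may no longer separate levels.

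Genes that mark mating type and meiosis were mostly dim in both strains. The sample labels give neither ploidy nor mating type. The test called 1 of 5 alpha-specific genes and 1 of 7 a-specific genes lower in NFRI 3236, and none higher. A negative value was found for 3 of the 5 and 6 of the 7. *STE6*, specific to a cells, read 0.153 and 0.0892 in NFRI 3236 and 0.314 and 0.363 in NFRI 3155 (-1.53 ± 0.31, adjusted p 0.00454). Its difference was -1.14 without NFRI 3236 replicate 2, and its call depended on that array. The *STE3* receptor gene, specific to alpha cells, read 0.0203 and 0.0425 in NFRI 3236 and 0.0730 and 0.0770 in NFRI 3155, against 0.224 to 0.308 in S288C (-1.35 ± 0.33, adjusted p 0.0141). It was no longer called without NFRI 3236 replicate 1 (adjusted p 0.0981) or NFRI 3155 replicate 2 (0.0655). Of 23 haploid-specific genes, 5 were lower and none higher, with 2 lower without NFRI 3155 replicate 2 and 8 without NFRI 3236 replicate 1. Of 59 meiosis genes 3 were higher and 12 lower, and without any 1 heated array 1 to 4 and 5 to 14. *PRM8*, a pheromone-regulated membrane protein gene, read 0.0335 and 0.0250 against 0.383 and 0.737 (-4.20 ± 0.33, adjusted p 1.91e-06). *PRM9*, of the same family, went the other way, 0.214 and 0.342 against 0.00354 and 0.00370, at least 9.17-fold higher.

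Among 35 genes of the oxidative stress response, 2 were higher (5.71%) and 5 lower (14.3%), near the 9.65% and 10.7% of all genes, and without any 1 heated array 1 to 3 and 3 to 4. *TSA2*, a stress-induced peroxiredoxin, read 0.297 and 0.349 against 1.41 and 1.35 (-2.10 ± 0.23, adjusted p 5.05e-05), and *MXR1*, which repairs oxidised methionine, 10.7 and 9.92 against 3.23 and 2.25 (1.93 ± 0.25, adjusted p 1.79e-04). Of 29 drug resistance and pump genes, 3 were higher (10.3%, against 9.65% of all genes) and 7 lower (24.1%, against 10.7%), and without any 1 heated array 2 to 4 and 2 to 7. *PDR15*, a stress-induced pump, read 1.27 and 1.93 against 6.60 and 8.08 (-2.22 ± 0.26, adjusted p 8.45e-05) and did not differ by the test at 30°C (0.02, adjusted p 0.975). *TPO3*, a polyamine exporter, read 0.250 and 0.342 against 0.0128 and 0.00825, at least 9.91-fold higher in NFRI 3236. *PDR15* and *TPO3*, both membrane pumps, thus differed in opposite directions. In the adhesion list, 3 of 17 were higher and 3 lower, led by *FLO9* and by *YPS3*, a cell surface protease, with 1.79 and 0.813 against 0.141 and 0.307 (2.54 ± 0.39, adjusted p 7.33e-04). Among the 23 haploid-specific genes the largest difference was that of *RME1*, a repressor of meiosis, with 0.113 and 0.0848 against 0.512 and 0.589 (-2.49 ± 0.29, adjusted p 7.30e-05). S288C read 1.04 to 1.53 for *RME1*, above both strains. *NEJ1*, another haploid-specific gene, read 0.322 and 0.241 against 1.01 and 0.890 (-1.77 ± 0.34, adjusted p 0.00316). There S288C lay below both strains, at 0.0524 to 0.0779. Of 10 histone genes only *HHT2*, a histone H3 gene, was higher, with 8.79 and 9.39 against 4.25 and 2.57 (1.46 ± 0.24, adjusted p 0.00118), and of 35 proteasome subunits 2 were higher, and 0 to 5 without any 1 heated array.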

How the data were processed

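Total RNA was purified to polyadenylated RNA, labelled and hybridised to Affymetrix GeneChip Yeast Genome 2.0 arrays, 1 array a sample, according to the study's methods. The authors deposited 1 signal intensity for each probe set and array, on a linear scale, from the GCOS software. Their own 75th percentile shift and filters came after that step. The file's columns were matched to samples by accession. Detection flags were not used here.

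Signals under 1 were set to 1, divided by the array's 75th percentile and taken as log2. Of 10928 probe sets, 5498 were assigned to 5449 *S. cerevisiae* genes by the platform annotation, with symbols from RefSeq. For the 47 genes with several probe sets the brightest was used. Genes whose probe set was above the lowest 20% of signals on all arrays of at least 1 group were kept, which left 5443 to test. Limma 3.58.1 in R 4.3.3 fitted 6 group means over all 14 arrays (8 residual degrees of freedom, 5.10 prior), and p-values were adjusted over all genes by the Benjamini-Hochberg method. SE is that of the fitted log2 difference. The contrasts were NFRI 3236 minus NFRI 3155 at 39°C, the same at 30°C, and the first minus the second. Tables were made in Python 3.11.15 with pandas 2.3.3. The fit was tested on simulated data. With 2 arrays a strain, the number of arrays limits the precision.

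A gene dim on all arrays of the lower strain has a bound, the mean log2 signal of the higher strain over that of the background level, printed as "at least N-fold". Gene order came from the RefSeq annotation of assembly R64.

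Named genes were the 12 largest differences in each direction among calls with no overlap, up to 3 in each direction from each of 42 lists, the genes the study names, the 6 brightest genes found in 1 strain, and the 6 most changed between temperatures in each direction. Not all of them are described. *HSP26*, *HSP104*, *SSA4* and *HSP12* were taken as markers of heat, and *NQM1*, *TPS1*, *FMP45*, *CRC1*, *PGM2* and the members of gene runs were named after their values were seen. The members and lists were chosen with earlier results of these data known. Alternatives were the arrays in the fit, the scaling, an offset of 16, the filters, the choice of probe set, the variance model, a replicate block, each array left out and the methods' t-test.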

Additional observations from a re-analysis of the deposited data

Results flagged for a closer look

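The strain difference itself changed between 30°C and 39°C for 136 genes by a test of that change in limma, which was the reason for a closer look. It became more positive, towards NFRI 3236, for 40 genes and more negative for 96. Leaving out 1 array gave 63 to 280 such genes.

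The largest positive changes were those of *TMA23* (5.06 on the log2 scale), *SOR2* (3.63), *PXR1* (3.24), *LOC1* (2.94), *RRP36* (2.84) and *YER034W* (2.66). *TMA23*, *PXR1*, *LOC1* and *RRP36* are nucleolar or ribosome assembly genes, and *SOR2* encodes a sorbitol dehydrogenase. *TMA23* read 0.0859 and 0.299 in NFRI 3236 and 0.0320 and 0.00900 in NFRI 3155 at 39°C, with 1 of these 2 NFRI 3155 arrays above background. At 30°C it read 0.0966 and 0.0730 against 0.255 and 0.343. Its strain difference passed at 39°C (3.24, adjusted p 0.00161) and not at 30°C (-1.82, adjusted p 0.0619). The change between temperatures passed (adjusted p 0.00417). *SOR2*, which has a near-identical copy and a probe set marked as shared between genes, was not above background in NFRI 3155 at 39°C, nor in either strain at 30°C.

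At 39°C the strain difference did not pass for *PXR1* (1.65, adjusted p 0.0530) or *RRP36* (1.18, adjusted p 0.0977). *LOC1* passed there (adjusted p 0.0201), a call that depended on replicate 2 of each strain. At 30°C *PXR1* (-1.59, adjusted p 0.109) and *LOC1* (-1.34, adjusted p 0.0731) did not pass. *RRP36* was lower in NFRI 3236 at 30°C (-1.66, adjusted p 0.0475). The calls of the change between temperatures for *PXR1*, *LOC1* and *RRP36* rested on single arrays. *PXR1* was lost without any 1 of 7 of the 8 arrays of both strains (adjusted p 0.0519 to 0.166), the exception being NFRI 3236 replicate 1 at 39°C. *LOC1* was lost without NFRI 3236 replicate 2 at 39°C (adjusted p 0.0979) and without NFRI 3155 replicate 1 (0.0888), NFRI 3155 replicate 2 (0.0516) or NFRI 3236 replicate 1 (0.0961) at 30°C. *RRP36* was lost without any of 6 arrays (adjusted p 0.0583 to 0.182), which leaves NFRI 3155 replicate 1 at 39°C and NFRI 3236 replicate 2 at 30°C as the exceptions.

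The largest negative changes were those of *PHO3* (-4.63), *SIP18* (-4.21), *MF(ALPHA)1* (-4.19), *YIL060W* (-4.04), *MET3* (-3.99) and *POT1* (-3.97). *PHO3* read 5.08 and 4.78 in NFRI 3236 and 0.0159 and 0.00410 in NFRI 3155 at 30°C, and stayed higher in NFRI 3236 at 39°C with a smaller difference (adjusted p of the change 0.00244). The sizes of the changes of *PHO3*, *SIP18*, *MF(ALPHA)1*, *YIL060W*, *POT1*, *SOR2* and *TMA23* rest partly on arrays where the gene was at background, and are fitted values, not measured folds. *SIP18*, *YIL060W* and *POT1* were dim in both strains at 30°C and read higher on both NFRI 3155 arrays than on both NFRI 3236 arrays at 39°C. *MF(ALPHA)1*, the alpha factor pheromone gene, was near background on every array of both strains. Its call was lost without any 1 of 5 arrays (adjusted p 0.0779 to 0.178), namely NFRI 3155 replicate 2 or NFRI 3236 replicate 1 at 30°C, and NFRI 3155 replicate 1, NFRI 3155 replicate 2 or NFRI 3236 replicate 1 at 39°C. *YIL060W* was lost without NFRI 3155 replicate 1 or NFRI 3236 replicate 1 at 30°C, or NFRI 3236 replicate 2 at 39°C (adjusted p 0.0591 to 0.0598).

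A signal was also present in probe sets that the annotation used here gives no gene. Of 3517 such probe sets, 227 (6.45%) were above background on all 4 heated arrays of the strains, against 14 (0.802%) of the 1746 fission yeast probe sets that set the background. Of these unnamed probe sets, 18 were above background in NFRI 3236 alone at 39°C and 22 in NFRI 3155 alone.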

How the results depend on the processing

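None of the genes named by the rule reversed under any alternative, which the choice of called genes with no overlap fixes in part. The counts depended on the settings, and the cause was not tested. Without 1 array there were 187 to 671 higher and 242 to 604 lower genes, 63 to 280 genes changed between temperatures, 158 to 273 genes called in the same direction at both, 3 to 10 lower trehalose and glycogen genes and 6 to 52 higher ribosome biogenesis genes. Fitted on the 4 heated arrays alone, with fewer degrees of freedom, there were 135 higher and 164 lower genes, 3 lower trehalose and glycogen genes, 6 lower peroxisome genes, 7 higher sulfate and methionine genes and 5 higher ribosome biogenesis genes. Fitted on the 8 NFRI arrays, there were 323 and 387, with 60 changed between temperatures, 6 trehalose and glycogen genes and 18 ribosome biogenesis genes. With no scaling between arrays there were 332 and 88, with 24 changed, 97 called in the same direction, 10 lower Msn2/4 genes, 5 peroxisome genes and 1 trehalose and glycogen gene. Adding 16 to each signal gave 209 changed genes.

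The methods' t-test called 299 genes higher at an unadjusted p under 0.05, 720 in either direction, and 0 in either direction after Benjamini-Hochberg adjustment, hence 0 in each gene list. With 2 arrays a strain it has few degrees of freedom, and limma called 1881 genes at an unadjusted p under 0.05. Same-numbered arrays did not deviate together (r = -0.25 at 39°C and 0.11 at 30°C), so the numbers were not taken as pairs. With 2 arrays a group, the negative value at 39°C means that opposite-numbered arrays of the strains deviated together in part. With the replicate number as a replicate block, 430 genes were higher and 474 lower, and 81 changed between temperatures. A crossed replicate block, added after seeing the data, gave 474, 546 and 112. Signals near the highest on an array, and those near background, limit what these arrays can resolve.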
